A study of Homo sapiens with 26 samples.

Results

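The exchange of DNMT3A for DNMT3B as the second target beside DNMT3L was followed in NCCIT cells, by setting the arrays labelled 3A+3L against those labelled 3B+3L over every gene with its own row in the table. The comparison used 4 of the 26 arrays of the series (2 of 3A+3L, 2 of 3B+3L) and 18417 genes. NCCIT is an established human embryonal carcinoma line, a germ cell tumour line with the character of early embryonic cells, and all groups are of this line. In 3A+3L the cells had received siRNA against DNMT3A and DNMT3L, and in 3B+3L siRNA against DNMT3B and DNMT3L. The siRNA against DNMT3L was thus shared by both groups. Control cells, siNTC-1 and siNTC-2, had received control siRNA. The same exchange was available beside DNMT1, in siD1+3A (siRNA against DNMT1 and DNMT3A) and siD1+3B (siRNA against DNMT1 and DNMT3B), with no siRNA against DNMT3L. The group labelled 3A+3B+3L had received siRNA against DNMT3A, DNMT3B and DNMT3L. Each group held 2 arrays, measured on the Affymetrix Human Gene 1.0 ST platform from 250 ng of total RNA. Nothing in the labels ties the 2 arrays of a group to separate transfections, so p-values measure only the spread between these arrays, which may be technical. The time after transfection and the sequences of the siRNAs were not given in the labels.

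DNMT3A and DNMT3B are the enzymes that place new methyl groups on cytosines of CpG sites, DNMT1 copies the existing pattern after replication, and DNMT3L is a relative without catalytic activity that binds DNMT3A or DNMT3B and stimulates them. DNMT3B and DNMT3L are known as genes of early embryonic and germ cells, and DNMT3B is among the most abundant methyltransferases of pluripotent cells. Methylation of a CpG-rich promoter goes along with silence of the gene in many cases, and germline genes are the best known group held silent in this way. No methylation was measured on these arrays, and all values below are RNA levels on a log2 scale, where a difference of 1 is a doubling.

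The 4 arrays compared lay among a set of 18 arrays that stood apart from 8 others along the first principal component, which held 49.5% of the variance of the genes. siNTC-1, siDNMT1, siDNMT3B and siDNMT3L made up the 8, so the control groups fell on opposite sides. siNTC-1 and siNTC-2 differed in 8234 of 18417 genes, or 44.7% of them. Within the set of 18, the 3B+3L arrays had component scores of 0.2312 and 0.2024, close to siNTC-2 at 0.2077 and 0.2076. The 3A+3L arrays had scores of 0.0560 and 0.0943, on the way towards siNTC-1 at -0.2978 and -0.2780. The difference between 3A+3L and 3B+3L therefore moved together with the axis that also separated the controls, and its part in the results below was not tested. The difference between controls (siNTC-1 minus siNTC-2) is given beside some of the results only. Genes for which it is not given can still differ between the controls. Duplicates correlated across genes at 0.9985 in 3A+3L and 0.9986 in 3B+3L. As a check of the cell type, SOX2 (12.22 and 12.32 in 3A+3L, 12.39 and 12.30 in 3B+3L), LIN28A (11.94 and 12.07, against 11.96 and 11.97) and L1TD1 (11.60 and 11.52, against 11.59 and 11.57), which mark pluripotent cells, were among the bright genes in both groups, and POU5F1, NANOG and TDGF1 had no row with a symbol of their own.

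The targeted transcripts were examined first. DNMT3A measured 6.81 and 6.74 in 3A+3L, 7.23 and 7.24 in 3B+3L, and 7.26 and 7.31 in siNTC-2. Both 3A+3L arrays lay below all others of these groups, and the 3B+3L arrays lay just under the control. The difference was -0.46 ± 0.07 (SE, limma adjusted p = 0.000203), and DNMT3A stood at 70.2% of siNTC-2 in 3A+3L and at 96.6% in 3B+3L. DNMT3B measured 11.893 and 12.003 in 3A+3L, 11.28 and 11.14 in 3B+3L, and 11.68 and 11.66 in siNTC-2. The control thus lay between the groups. DNMT3B was higher in 3A+3L than in siNTC-2 by 0.28 (adjusted p = 0.00285) and lower in 3B+3L by -0.46 (adjusted p = 0.000139), and the groups differed by 0.74 ± 0.06 (adjusted p = 1.73e-07). DNMT3B thus stood at 121.3% of siNTC-2 in 3A+3L and at 72.6% in 3B+3L. Against the mean of both control groups the excess in 3A+3L was 0.12 and missed the test (adjusted p = 0.0978).

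DNMT3L, the target shared by both groups, measured 5.51 and 5.36 in 3A+3L, 5.50 and 5.66 in 3B+3L, and 5.99 and 5.97 in siNTC-2. The groups lay below the control and beside each other, with a difference of -0.15 ± 0.12 that did not pass the test (adjusted p = 0.467), at 68.3% and 75.8% of siNTC-2. These levels are in the dim range of the arrays. Without siRNA against DNMT3L, siDNMT1 and siDNMT3B stood at 74.8% and 79.6% of siNTC-2. The other groups without it lay between 93.9% (siD1+3A) and 111.2% (3A+3B). A level like that of 3B+3L was thus also seen without siRNA against DNMT3L. DNMT1, which no siRNA targeted here, measured 10.04 and 10.07 in 3A+3L and 9.98 and 9.97 in 3B+3L, a difference of 0.08 ± 0.05 (adjusted p = 0.429). In siD1+3A minus siD1+3B the differences were -0.63 for DNMT3A (adjusted p = 0.000123) and 0.60 for DNMT3B (adjusted p = 6.25e-05), and for none of the 4 genes did the exchange differ between the partners past the test (adjusted p from 0.361 to 0.728). In the arrays labelled 3A+3B+3L, DNMT3B measured 11.63 and 11.69, or 99.4% of siNTC-2, so its depletion there was not visible against that control.

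**Figure D1:**
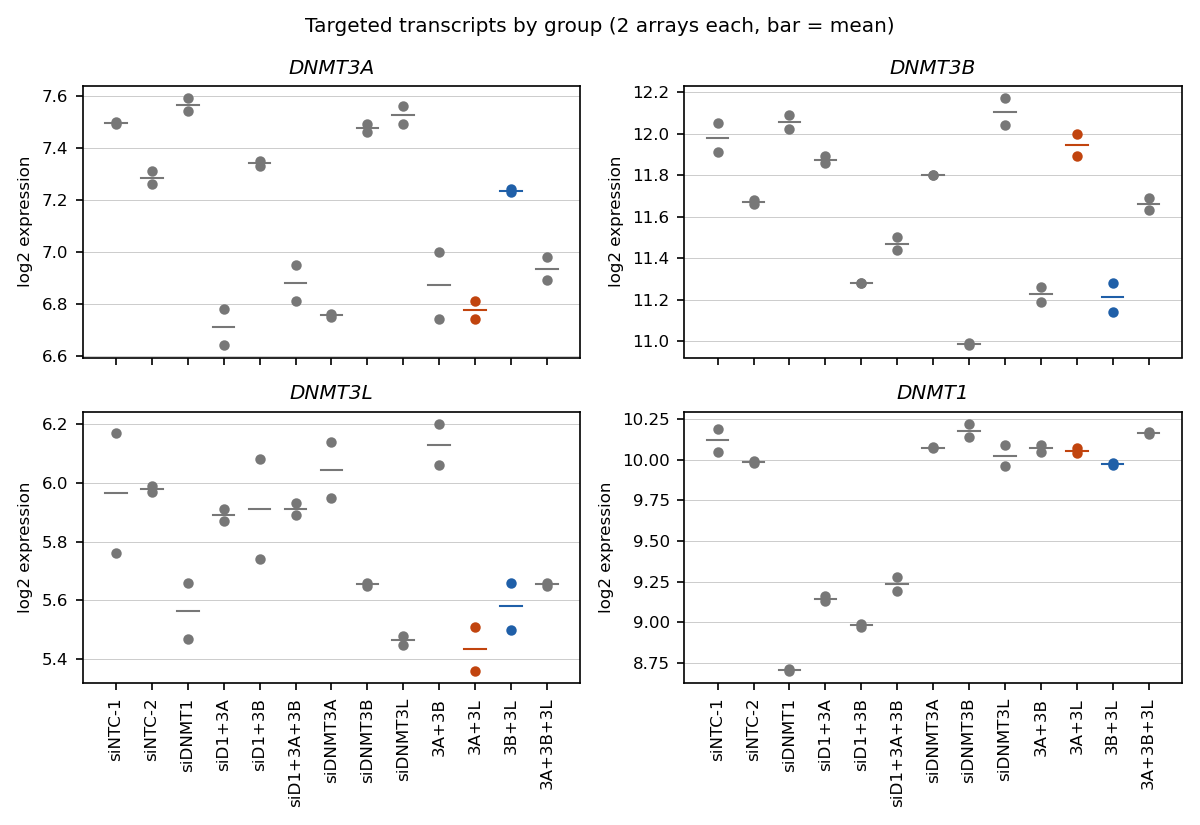
Log2 expression of DNMT1, DNMT3A, DNMT3B and DNMT3L (vertical axes) in the 13 groups (horizontal axes), each point 1 array. In 3A+3L DNMT3A sits at 6.81 and 6.74 and DNMT3B at 11.893 and 12.003, against 7.23 and 7.24 and 11.28 and 11.14 in 3B+3L, while DNMT3L is close in both.

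Over all genes, 3152 of 18417 differed between 3A+3L and 3B+3L at an adjusted p under 0.05, or 17.1% of those tested, 1317 higher in 3A+3L (7.15%) and 1835 lower (9.96%). Most of these differences were small. A change of at least 1.5-fold as well was found for 264 genes (1.43%), 61 higher (0.331%) and 203 lower (1.1%), so that the larger differences were more often lower values in 3A+3L. The arrays of the groups did not overlap for 9721 genes (52.8%). The median difference over all genes was -0.0044. The count of 3152 fell to 1933 without replicate 1 of 3B+3L, the higher count of 1317 to 792 without replicate 2 of 3A+3L and to 775 without replicate 2 of 3B+3L, and the lower count of 1835 to 1049 without replicate 1 of 3A+3L and to 1012 without replicate 1 of 3B+3L. The count at 1.5-fold stayed between 262 and 329 when any of the 4 arrays was left out.

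**Figure D2:**
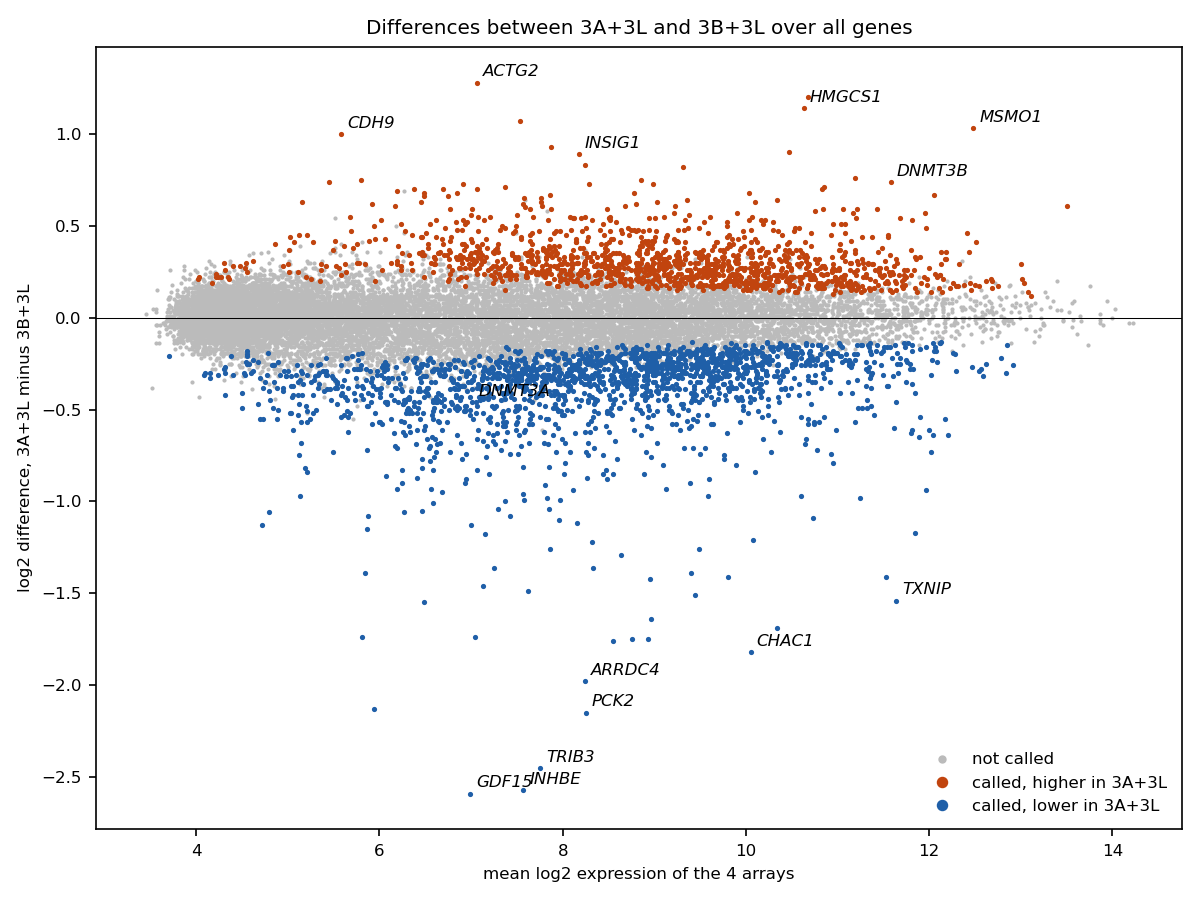
Log2 difference, 3A+3L minus 3B+3L (vertical axis), against the mean log2 expression of the 4 arrays (horizontal axis), each point 1 of 18417 genes with called genes in colour and genes named in the text labelled. The points reach further down (GDF15 at -2.59) than up (ACTG2 at 1.28).

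The genes lowest in 3A+3L were led by targets of the amino acid and stress response. GDF15, a secreted stress cytokine, measured 5.76 and 5.63 in 3A+3L against 8.28 and 8.29 in 3B+3L, a 6.02-fold lower level (-2.59 ± 0.10, adjusted p = 1.23e-11). INHBE, which encodes an inhibin beta subunit, measured 6.30 and 6.26 against 8.96 and 8.75 (-2.57 ± 0.13, adjusted p = 1.18e-10). TRIB3, a pseudokinase made under stress, measured 6.50 and 6.57 against 8.98 and 8.99 (-2.45 ± 0.12, adjusted p = 8.07e-11). No array of 3A+3L came near one of 3B+3L for these genes, which were picked among those without overlap of arrays (52.8% of all genes). siNTC-2 lay with 3B+3L, at 7.94 and 7.78 for GDF15, 8.77 and 8.59 for INHBE and 8.90 and 8.89 for TRIB3. The next genes were PCK2, a mitochondrial enzyme of gluconeogenesis (-2.15), BEST1, an anion channel (-2.13), ARRDC4, an arrestin-domain relative of TXNIP (-1.98), CHAC1, which breaks down glutathione (-1.82), DDIT4, an inhibitor of mTORC1 (-1.76), SESN2, a leucine sensor (-1.75), ALDH1L2, a mitochondrial folate enzyme (-1.75), SLC1A4, a carrier of neutral amino acids (-1.74), and LAMP3, a lysosomal membrane protein (-1.74). Their adjusted p ranged from 1.23e-11 for PCK2 to 1.22e-07 for LAMP3. All 12 genes were also lower in siNTC-1 than in siNTC-2, by -1.45 (SLC1A4) to -3.53 (CHAC1).

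The 250 bases before the start of the first genes of this direction that the promoter table holds are shown with CpG dinucleotides in capitals, since these are the sites the enzymes act on. The promoter of TRIB3 is dense in CpG (33 sites) and that of GDF15 is not (9 sites), and both genes were lower in 3A+3L. The sequences are from RefSeq (GRCh38.p14), written in the direction of transcription, at chr19:18385908-18386157 on the plus strand for GDF15 and chr20:381045-381294 on the plus strand for TRIB3.
GDF15: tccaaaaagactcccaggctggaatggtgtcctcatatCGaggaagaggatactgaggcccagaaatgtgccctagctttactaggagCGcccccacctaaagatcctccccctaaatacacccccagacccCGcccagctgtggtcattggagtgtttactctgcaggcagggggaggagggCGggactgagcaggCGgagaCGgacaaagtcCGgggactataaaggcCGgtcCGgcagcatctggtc
TRIB3: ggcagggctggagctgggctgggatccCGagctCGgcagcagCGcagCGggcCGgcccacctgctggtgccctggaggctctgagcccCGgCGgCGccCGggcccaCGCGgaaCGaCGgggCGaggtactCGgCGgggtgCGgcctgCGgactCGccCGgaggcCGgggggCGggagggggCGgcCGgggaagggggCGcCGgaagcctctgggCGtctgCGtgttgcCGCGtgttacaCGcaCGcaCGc

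Among the genes higher in 3A+3L, ACTG2 led. ACTG2, the gamma actin of smooth muscle of the gut, measured 7.64 and 7.77 in 3A+3L against 6.32 and 6.53 in 3B+3L, a 2.42-fold higher level (1.28 ± 0.08, adjusted p = 4.29e-09). siNTC-2 lay with 3A+3L here, at 7.59 and 7.75, so 3B+3L was the group that stood apart. CDH9, a cadherin of neurons, measured 5.95 and 6.21 against 5.11 and 5.05 (1.00 ± 0.12, adjusted p = 1.71e-05), again with siNTC-2 beside 3A+3L at 6.07 and 5.83. HMGCS1, the synthase that makes HMG-CoA for cholesterol, measured 11.17 and 11.23 against 10.05 and 10.06 (1.14 ± 0.05, adjusted p = 3.61e-11), and here siNTC-2 lay with 3B+3L at 9.97 and 10.00. The cholesterol genes MSMO1 (1.03) and INSIG1 (0.89) and the splicing RNA RNU5D-1 (1.20) and splicing protein SNRPG (0.90) followed, together with 5 small nucleolar RNAs, SNORD14E (1.07), SNORD50B (0.93), SNORA74A (0.83), SNORD12C (0.82) and SNORD78 (0.76). Adjusted p of the 12 genes ranged from 3.61e-11 for HMGCS1 to 7.64e-05 for SNORD50B. Small RNAs and SNRPG have near-identical copies in the genome, so the assignment of their signal to a copy is uncertain.

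**Figure D3:**
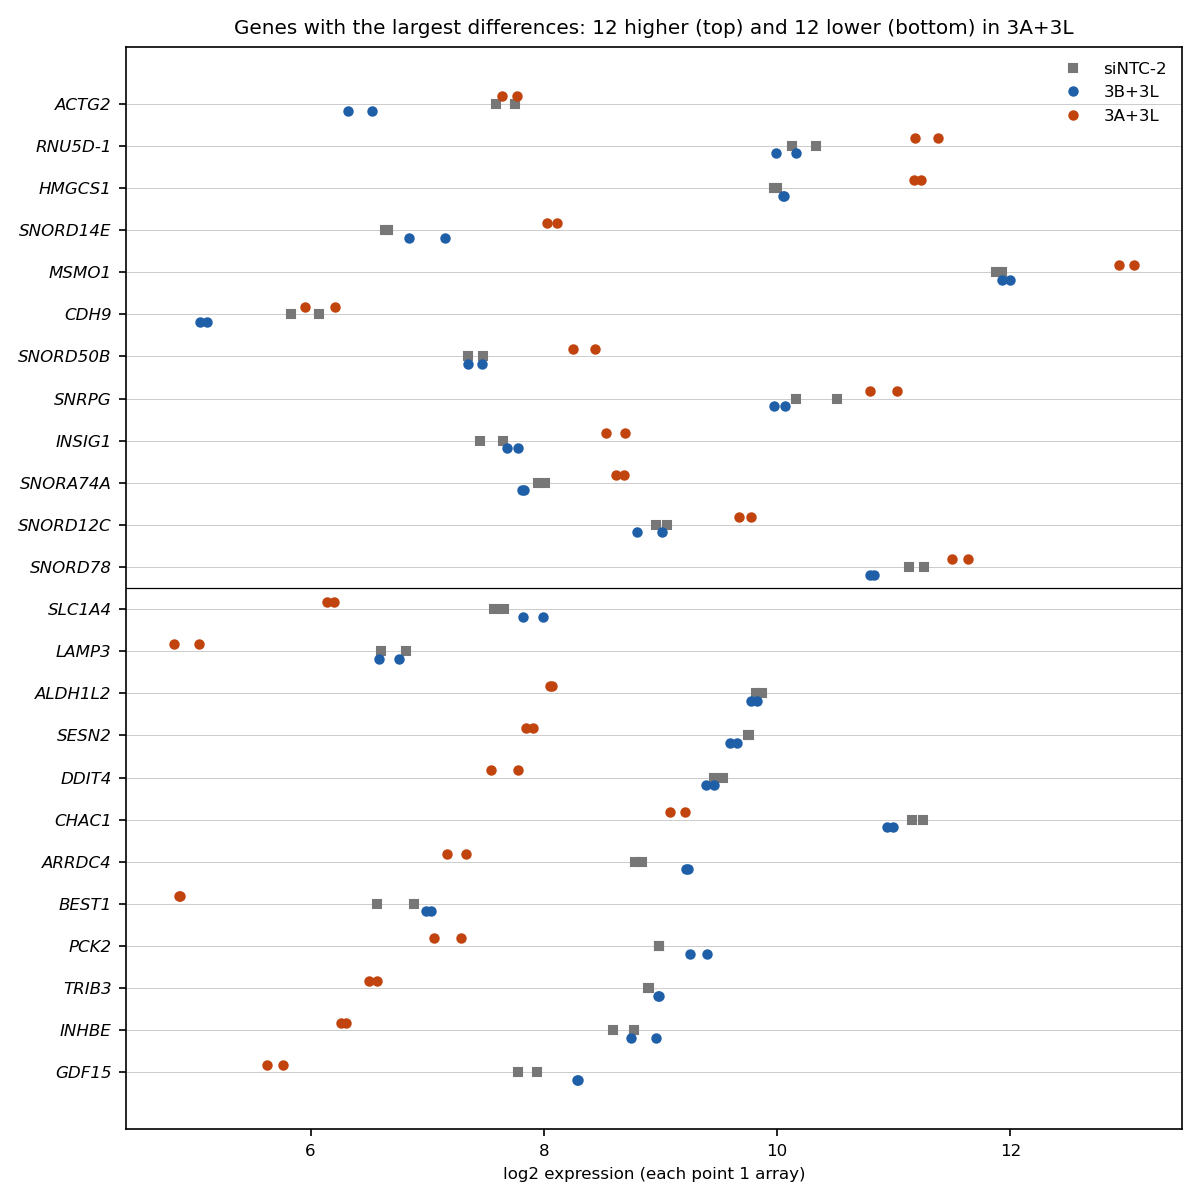
Log2 expression (horizontal axis, each point 1 array) of the 12 genes with the largest higher and the 12 with the largest lower values in 3A+3L (vertical axis), with arrays of 3A+3L, 3B+3L and siNTC-2 in separate colours. The control points lie with 3B+3L for all 12 lower genes, as for GDF15 (7.94 and 7.78), and with 3A+3L for ACTG2 (7.59 and 7.75) and CDH9 (6.07 and 5.83).

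Promoters of the higher genes are shown in the same way. ACTG2 and CDH9 have CpG-poor starts (4 and 7 sites) and HMGCS1 a CpG-rich start (23 sites), and CDH9 was added after its values were seen because it differed with both partners. The positions are chr2:73892758-73893007 on the plus strand for ACTG2, chr5:43313413-43313662 on the minus strand for HMGCS1 and chr5:27038587-27038836 on the minus strand for CDH9.
ACTG2: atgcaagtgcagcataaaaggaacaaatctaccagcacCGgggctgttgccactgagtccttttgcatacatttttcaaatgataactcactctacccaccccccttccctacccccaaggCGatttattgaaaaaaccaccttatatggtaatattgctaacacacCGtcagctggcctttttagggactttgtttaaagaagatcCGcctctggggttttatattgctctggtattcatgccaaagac
HMGCS1: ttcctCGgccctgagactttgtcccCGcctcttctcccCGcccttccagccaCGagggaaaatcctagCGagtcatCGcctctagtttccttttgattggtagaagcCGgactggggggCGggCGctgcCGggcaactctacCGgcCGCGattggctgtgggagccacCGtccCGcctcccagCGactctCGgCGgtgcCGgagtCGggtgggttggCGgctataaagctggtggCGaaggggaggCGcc
CDH9: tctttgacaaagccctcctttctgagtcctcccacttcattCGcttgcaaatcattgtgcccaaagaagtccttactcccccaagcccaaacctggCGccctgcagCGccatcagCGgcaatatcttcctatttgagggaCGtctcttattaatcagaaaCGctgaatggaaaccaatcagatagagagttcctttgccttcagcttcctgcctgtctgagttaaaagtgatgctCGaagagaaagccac

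CpG content was set against the calls for the 14239 genes with an entry in the table. The median was 18 CpG per 250 bases over all genes, 21 among the genes higher in 3A+3L and 21 among those lower. At least 15 CpG were present in 59.3% of all promoters, in 74.5% of the 1037 promoters of higher genes and in 71.7% of the 1512 promoters of lower genes. The share was thus above that of all genes in both directions, and it was not tested against the level of expression.

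Of the list of ATF4 targets and unfolded protein response genes, 22 of 28 measured members were lower in 3A+3L and 3 were higher. The median was -0.92, against -0.0044 over all genes, of which 9.96% were lower and 7.15% higher. ATF4 is the transcription factor made when amino acids are short or proteins misfold, and its targets supply amino acids, one-carbon units and glutathione precursors. The cystine carrier SLC7A11 measured 11.26 and 11.27 in 3A+3L against 12.43 and 12.44 in 3B+3L (-1.17). DDIT3, the stress factor CHOP, measured 8.70 and 8.70 against 10.11 and 10.07 (-1.39). The amino acid carrier SLC7A5 (-1.41), the factor CEBPB (-1.26), asparagine synthetase ASNS (-1.09) and the serine enzyme PSAT1 (-0.94) were lower as well. The ATF4 transcript itself measured 10.86 and 10.83 against 10.81 and 10.78 and did not pass the test (0.05, adjusted p = 0.604). Members higher in 3A+3L were the chaperones of the endoplasmic reticulum HSPA5 (0.45) and DNAJB9 (0.27) and the chaperone partner SDF2L1 (0.68). The call of DNAJB9 was lost without replicate 2 of 3A+3L (0.18, adjusted p = 0.244) and without replicate 1 or 2 of 3B+3L (adjusted p = 0.0622 and 0.14). Averaged over the list, the level was 8.91 and 8.98 in 3A+3L, 9.87 and 9.84 in 3B+3L, 9.85 and 9.85 in siNTC-2 and 8.83 and 8.83 in the arrays labelled 3A+3B+3L. In siNTC-1 minus siNTC-2, 24 members were lower and 3 higher (median -1.18), where 44.7% of all genes were called. The count of 22 was the same without any of the 4 arrays.

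The promoters of this list were searched for the joint site of CEBP and ATF factors, TGATGNAA, on both strands within 250 bases before the start. It was found in 4 of 23 promoters (17.4%), against 2.19% of all 14239 promoters, and in 8 of the 155 promoters of genes lower at 1.5-fold (5.16%) against 1 of 38 of genes higher at 1.5-fold (2.63%). Over all called genes the share was 2.25% for the lower and 1.25% for the higher ones, so that all lower genes were near the share of all promoters. The list was drawn up from ATF4 targets, so its own share is not independent of this site. CHAC1 is shown as an example, chosen after its values were seen, with the match in capitals, read on the reverse strand and starting 209 bases before the start (chr15:40953221-40953470, plus strand, GRCh38.p14). CHAC1 measured 9.08 and 9.21 in 3A+3L and 10.99 and 10.94 in 3B+3L. A match describes these letters and not a bound site.
CHAC1: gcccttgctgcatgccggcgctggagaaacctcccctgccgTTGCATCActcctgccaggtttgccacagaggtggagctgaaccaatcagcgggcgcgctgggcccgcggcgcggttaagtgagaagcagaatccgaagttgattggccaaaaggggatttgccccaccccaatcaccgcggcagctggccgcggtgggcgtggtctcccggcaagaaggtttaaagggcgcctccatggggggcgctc

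TXNIP, the inhibitor of thioredoxin that reports glucose and stress, measured 10.79 and 10.95 in 3A+3L against 12.45 and 12.37 in 3B+3L (-1.54, adjusted p = 7.97e-11). In its list of glucose response genes 4 of 8 were lower and 1 higher, with KLF10 at -0.95 after ARRDC4. Between the controls, in siNTC-1 minus siNTC-2, that list had 5 members lower and 2 higher, where 44.7% of all genes were called. VEGFA, the growth factor for blood vessels, measured 8.04 and 7.95 against 9.30 and 9.27 (-1.29), and the vasodilator peptide ADM 9.36 and 9.63 against 10.32 and 10.27 (-0.80). The list of glycolysis and hypoxia genes, which holds both, had 8 of 24 members higher and 2 lower (median 0.07), or 41.7% called against 17.1% of all genes. Among the higher members were the lactate dehydrogenase subunit LDHA, at 12.37 and 12.42 against 11.72 and 11.72 (0.67), the glucose carrier SLC2A1 (0.55) and the mitophagy receptor BNIP3 (0.51).

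Genes of cholesterol synthesis were higher in 3A+3L for 15 of 18 measured members and lower for 0, with a median of 0.39. The shares over all genes were 7.15% higher and 9.96% lower. These enzymes turn acetyl-CoA into sterols under the factor SREBF2, whose own transcript did not pass the test (-0.05, adjusted p = 0.711). SQLE, the squalene epoxidase, measured 10.64 and 10.67 in 3A+3L against 10.08 and 9.97 in 3B+3L (0.64). INSIG1, the feedback protein that retains the pathway's sensor, measured 8.53 and 8.70 against 7.78 and 7.68. The sterol methyl oxidase MSMO1 (1.03) and the isomerase IDI1 (0.63) were among the members that differed most. The mean of the list was 9.57 and 9.63 in 3A+3L and 9.19 and 9.13 in 3B+3L, with siNTC-2 at 9.15 and 9.18 and siNTC-1 at 9.52 and 9.56. Between 11 and 15 members were higher when any of the 4 arrays was left out.

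Small nucleolar RNAs, which guide the modification of ribosomal RNA and are cut from introns of host genes, were higher in 3A+3L for 14 of 17 measured members and lower for 0 (median 0.44). The shares over all genes were 7.15% higher and 9.96% lower. SNORD14E measured 8.03 and 8.11 against 7.15 and 6.84, and SNORD78 11.64 and 11.50 against 10.83 and 10.80. The mean of the list was 9.16 and 9.15 in 3A+3L, 8.70 and 8.66 in 3B+3L and 8.56 and 8.58 in siNTC-2. In siNTC-1 it was 9.62 and 9.64, above both depletions. Of the 17 members 16 were higher in siNTC-1 than in siNTC-2, where 44.7% of all genes were called. Ribosomal protein genes, by contrast, had 0 of 21 members past the test in either direction, with a median of -0.01 and 2 members at an unadjusted limma p under 0.05.

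**Figure D4:**
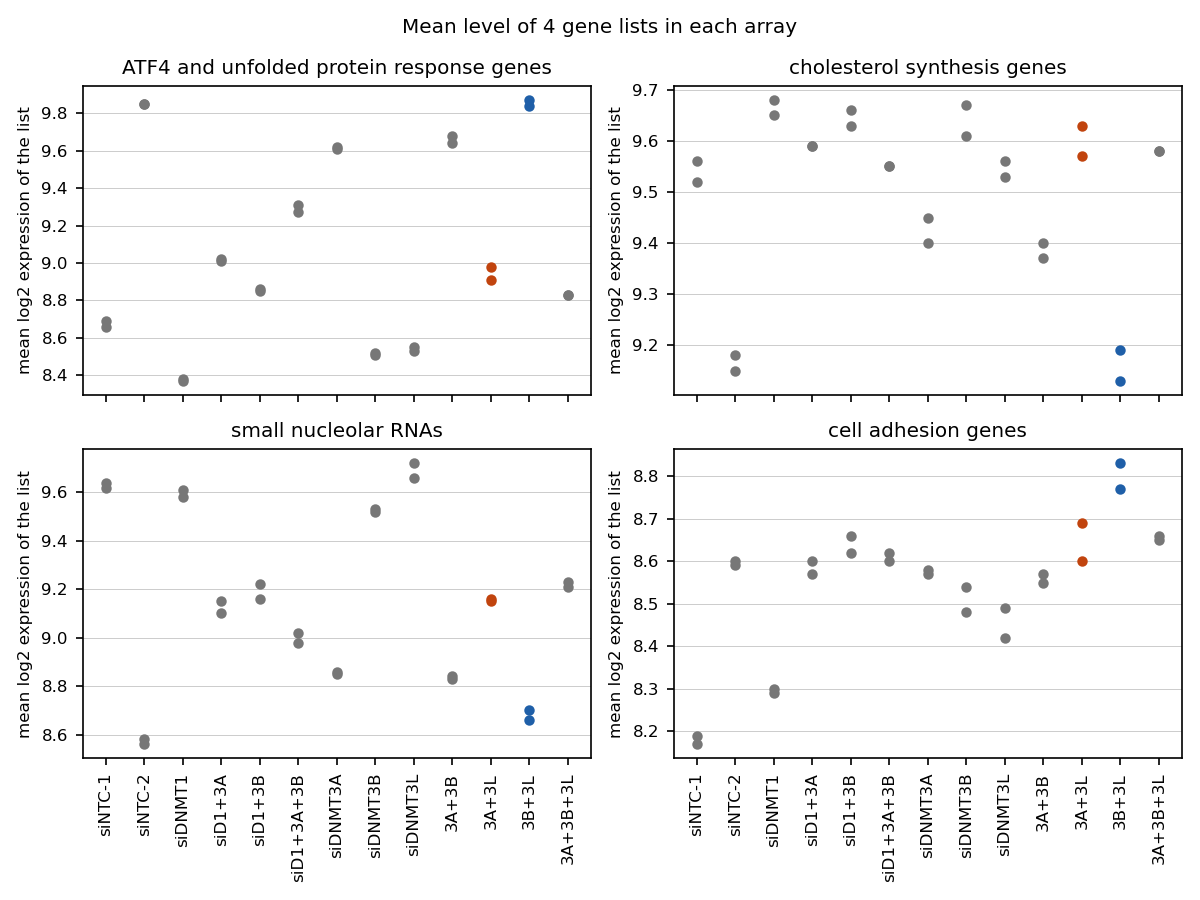
Mean log2 expression of the ATF4, cholesterol, small nucleolar RNA and cell adhesion lists (vertical axes) in each array of the 13 groups (horizontal axes). The ATF4 list is at 8.91 and 8.98 in 3A+3L and at 9.87 and 9.84 in 3B+3L, and the cholesterol list at 9.57 and 9.63 against 9.19 and 9.13.

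Genes of mitosis and DNA replication that differed were mostly higher in 3A+3L, and histone genes that differed were mostly lower. Called were 47.8% of the mitosis, 48.3% of the replication and 35.7% of the histone list. Over all genes 17.1% were called, 7.15% higher and 9.96% lower. Of the mitosis list 11 of 23 members were higher and 0 lower (median 0.15), among them the kinesin KIF20A (0.46), the checkpoint protein MAD2L1 (0.47), the kinase CDK1 (0.41) and its cyclin CCNB1 (0.34). Of the DNA replication list 11 of 29 were higher and 3 lower, with the nucleotide enzyme RRM2 at 9.68 and 9.63 against 9.07 and 9.13 (0.56) and the helicase subunit MCM4 at 0.43, while the primase subunit PRIM1 was lower (-0.43). Histone genes, which are transcribed in S phase, had 8 of 28 members lower and 2 higher, with H4C8 at 11.69 and 11.57 against 12.14 and 12.21 (-0.54) and H2BC11 at -0.51. In siNTC-1 minus siNTC-2 the replication list had 22 members higher and 4 lower, the mitosis list 11 higher and 1 lower, and the histone list 4 higher and 15 lower. Between the controls 44.7% of all genes were called. In these bulk samples a change in the share of cells in a phase and a change in RNA per cell cannot be told apart.

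Cell adhesion genes had 9 of 21 members lower in 3A+3L and 2 higher (median -0.19). The desmosomal cadherin DSG2 measured 9.95 and 9.94 against 10.38 and 10.33 (-0.41) and E-cadherin, CDH1, measured 8.12 and 8.20 against 8.55 and 8.41 (-0.32), while the tight junction protein CLDN6 was higher, at 10.71 and 10.86 against 10.29 and 10.29 (0.49). The mean of the list was 8.60 and 8.69 in 3A+3L, 8.83 and 8.77 in 3B+3L and 8.60 and 8.59 in siNTC-2. In siNTC-1 it was 8.17 and 8.19, below both groups. All 21 members were called in siNTC-1 minus siNTC-2, 19 lower and 2 higher (median -0.44), against 44.7% of all genes. The count of 9 lower members fell to 2 without replicate 1 of 3A+3L, to 3 without replicate 1 of 3B+3L and to 5 without replicate 2 of 3B+3L. Extracellular matrix genes had 7 of 24 members higher and 2 lower, with the matrix glycoprotein TNC at 8.29 and 8.40 against 7.93 and 7.93 (0.41) and the proteoglycan HSPG2 lower (-0.34). The share called was 52.4% in the adhesion list and 37.5% in the matrix list, against 17.1% of all genes.

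Among signalling genes, HHIP, a membrane antagonist of hedgehog ligands, measured 5.35 and 5.31 in 3A+3L and 6.45 and 6.38 in 3B+3L (-1.08, adjusted p = 8.55e-09), with siNTC-2 above both at 7.32 and 7.23. SHISA3, an antagonist of Wnt signalling, had the same order, at 7.57 and 7.73, 8.60 and 8.57, and 9.58 and 9.79. Both genes were thus below control in both depletions and lowest in 3A+3L. SHISA3 did not pass the test between the controls (-0.05, adjusted p = 0.777), and HHIP did. PTCH1, the hedgehog receptor, was lower in 3A+3L (-0.39) and the hedgehog factor GLI3 higher (0.33). The immediate-early genes JUN (-0.68), PHLDA1 (-0.49) and FOS (-0.42) were lower, in a list with 6 of 21 lower and 2 higher. Of Nodal and BMP genes 5 of 23 were lower and 1, GDF3, was higher, and of retinoic acid genes 3 of 18 were lower and 0 higher, with the retinol receptor STRA6 at 8.43 and 8.63 against 9.24 and 9.10 (-0.64). Called were 38.1% of the immediate-early, 26.1% of the Nodal and BMP and 16.7% of the retinoic acid list. Over all genes the share was 17.1%, near that of the retinoic acid list. In siNTC-1 minus siNTC-2 the immediate-early list had 2 members higher and 12 lower. The Nodal and BMP list had 5 higher and 7 lower there, and the retinoic acid list 3 and 6, where 44.7% of all genes were called. STRA6 (-0.82) and PHLDA1 (-0.67) were lower between the controls, and GLI3 (0.35) and FOS (0.46) higher. With the groups compared alone, the Nodal and BMP genes SMAD3 (-0.23), SMAD1 (-0.22) and ID1 (-0.30) missed the test. The retinoic acid gene ALDH1A3 (-0.24) missed it as well (adjusted p from 0.0847 to 0.1 for these genes).

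Lists of genes for which DNA methylation is the known form of silencing were examined next, and many of their members were dim. Without the dimmest 40% of genes, 5 of 21 germline and piRNA genes, 5 of 18 meiotic chromosome genes and 3 of 14 cancer-testis antigens were left. For a dim gene the lack of a call does not show that its level was unchanged. Of germline and piRNA genes 3 of 21 were lower in 3A+3L and 0 higher, or 14.3%, against 17.1% of all genes. MAEL, a piRNA factor, measured 4.66 and 4.91 against 5.81 and 5.45 (-0.84), and TDRD12 and TDRKH were at -0.36 and -0.21, of which TDRD12 missed the test without either 3A+3L array or replicate 2 of 3B+3L (adjusted p from 0.0847 to 0.196) and TDRKH without replicate 1 of 3A+3L or either 3B+3L array (adjusted p from 0.0989 to 0.396). Cancer-testis antigens had 1 of 14 higher and 1 lower, meiotic chromosome genes 2 of 18 higher and 2 lower, clustered protocadherins 2 of 20 higher and 1 lower, and imprinted genes 3 of 20 higher and 1 lower. These shares lie near that of all genes, and the members that differed went in either direction. The calls of the cancer-testis genes CTCFL and BRDT and of the meiotic genes SMC1B and TEX15 were lost when single arrays were left out. Those of PCDHB2 (protocadherins) and NNAT (imprinted) were lost in the same way. PCDHB16 (0.59) and PCDHB15 (-0.57), neighbours in the protocadherin beta cluster, moved apart. Of the proteins that remove or read methylation, TET3, a demethylating oxidase, measured 7.81 and 7.69 against 8.20 and 8.14 (-0.42), and UHRF1, which brings DNMT1 to replicated DNA, was at 0.37 and missed the test without replicate 2 of either group (adjusted p = 0.0833 and 0.0755).

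Markers of the cell types that NCCIT cultures could hold were examined in the same way. Of pluripotency genes 2 of 21 were higher in 3A+3L, GDF3 (12.22 and 12.26 against 11.70 and 11.64) and ZFP42 (10.15 and 10.11 against 9.78 and 9.73), and TFCP2L1 was lower (-0.28). Trophoblast markers had 1 of 13 higher (HAND1, 0.43), endoderm markers 1 of 12 (CXCR4, 0.75), mesoderm markers 0 of 13 (0 at an unadjusted limma p under 0.05), and neural markers 3 of 18 higher and 3 lower. The list means were close in both groups, at 5.61 and 5.66 against 5.56 and 5.64 for trophoblast, 5.09 and 4.98 against 4.90 and 5.01 for endoderm, 5.40 and 5.29 against 5.33 and 5.33 for mesoderm and 6.54 and 6.60 against 6.66 and 6.61 for neural markers. The defining genes GATA3 (4.81 and 4.85 against 4.90 and 4.96), SOX17 (4.90 and 4.82 against 4.90 and 5.00) and PAX6 (4.16 and 4.14 against 4.37 and 4.01) were at the dim end of the arrays in both groups. Within the neural list STMN2 (0.47) and MAP2 (0.48) were higher and NCAM1 (-0.63), L1CAM (-0.77) and GAP43 (-0.51) lower. Interferon response genes had 1 of 22 members lower, DDX60 (-0.31), and 0 higher. Over all genes 17.1% were called, against 14.3% of the pluripotency list and 33.3% of the neural list.

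The other lists ranged from 7.41% of 27 measured members past the test (Wnt) to 4 of 10 (teneurins and latrophilins), against 17.1% of all genes, and most were above that share. Of p53 response genes 4 of 17 were lower in 3A+3L and 1 higher, with the death receptor TNFRSF10B at 8.13 and 8.29 against 8.61 and 8.60 (-0.40), the RNA-binding protein ZMAT3 at -0.28 and the cell cycle inhibitor CDKN1A at -0.35. TFAP2C, a transcription factor of germ cells and trophoblast, was the 1 of 9 members of its family list that was called, at 9.71 and 9.76 against 10.16 and 10.17 (-0.43). Teneurins, latrophilins and their partners, which join neurons at synapses, had 2 of 10 higher and 2 lower, among them TENM2 (-0.44) and FLRT2 (0.36). Of endogenous retrovirus envelope genes 2 of 7 were lower, with ERVH48-1 at 10.15 and 10.24 against 10.61 and 10.55 (-0.39). Metallothioneins, which bind zinc and copper, had 2 of 9 higher (MT1X at 0.41), and RNAs made by polymerase III 2 of 7 (the vault RNA VTRNA1-2 at 0.36). Readers of methylated DNA and silencing factors had 4 of 17 higher and 1 lower, and respiratory chain genes 3 of 18 higher and 0 lower. With the groups compared alone, ZBTB33, TRIM28, DAXX and SUV39H2 of the former lost their calls (adjusted p from 0.0567 to 0.145). COX7A2, NDUFB3 and UQCRB of the latter lost theirs as well (adjusted p from 0.0806 to 0.123). The calls of these genes were also lost when single arrays were left out. The hedgehog list had 1 of 13 higher and 3 lower, the Wnt list 1 of 27 higher and 1 lower. CTNNB1 of the Wnt list and GLI1 of the hedgehog list lost their calls with the groups compared alone (adjusted p = 0.211 and 0.0581). MT2A, RPPH1, TENM3, ADGRL1 and ERVK13-1 of the lists above lost theirs there too (adjusted p from 0.058 to 0.226). Over all 37 lists 203 of 636 measured members were called, against 17.1% of all genes. The lists were chosen with earlier results of these data known.

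Each group was then set beside siNTC-2, the control on its side of the first component. These comparisons share the control arrays with each other, and each shares arrays with the comparison of the groups. 3A+3L differed from siNTC-2 in 4126 genes (22.4%), with 384 at 1.5-fold (2.09%), and 3B+3L in 1860 (10.1%), with 63 at 1.5-fold (0.342%). Of the 203 genes lower at 1.5-fold in 3A+3L than in 3B+3L, 187 passed the test in 3A+3L minus siNTC-2 and 52 in 3B+3L minus siNTC-2, with median absolute differences of 0.71 and 0.17. Of the 61 higher genes the counts were 51 and 18 and the medians 0.53 and 0.22. Most of the larger differences were thus distances of 3A+3L from this control, and ACTG2 (0.03 in 3A+3L, -1.25 in 3B+3L), CDH9 (0.13 and -0.87) and L1CAM (0.04 and 0.81) were examples of the opposite. The arrays labelled 3A+3B+3L, which enter none of these comparisons, lay nearer to 3A+3L than to 3B+3L for 202 of the 203 lower genes and 57 of the 61 higher genes, and for 65.9% of all genes. With the mean of both controls in place of siNTC-2, 3B+3L differed in 6041 genes, with 448 at 1.5-fold, and the count at 1.5-fold of 3A+3L was 225, so the order of the groups by distance from control rests on the choice of control. Without any 1 array of 3B+3L or siNTC-2 the count of 1860 fell to between 913 and 1096.

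The same exchange beside DNMT1 gave fewer differences. siD1+3A and siD1+3B differed in 402 of 18417 genes, or 2.18%, 256 higher in siD1+3A (1.39%) and 146 lower (0.793%), and 18 reached 1.5-fold (0.0977%). After quantile normalization 274 were higher and 243 lower. The count of 402 fell to between 87 and 166 when any of these 4 arrays was left out. No array is shared with 3A+3L minus 3B+3L. Called in both comparisons were 189 genes, 6.0% of the 3152 and 47.0% of the 402, of which 145 went the same way (78 higher, 67 lower) and 44 the opposite way. Across all genes the differences correlated at a Pearson r of 0.07 and a Spearman coefficient of 0.05, where genes are not independent replicates. Of the 145 genes, 112 (77.2%) also differed between siNTC-1 and siNTC-2, 77 of them in the same direction as the exchange. The count of 145 fell to 58, 40, 65 and 46 without replicate 1 or 2 of siD1+3A and replicate 1 or 2 of siD1+3B.

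ACTG2 was the gene with the largest difference shared by both partners. It measured 7.87 and 7.92 in siD1+3A and 6.88 and 6.89 in siD1+3B (1.01 ± 0.08, adjusted p = 6.17e-06), against 1.28 beside DNMT3L, and the exchange did not differ between partners past the test (0.27, adjusted p = 0.172). Across the 13 groups ACTG2 was lowest in 3B+3L (6.32 and 6.53), siDNMT3B (6.52 and 6.61), siDNMT3L (6.86 and 6.95) and siD1+3B (6.88 and 6.89), and highest in siDNMT3A (8.39 and 8.41) and siNTC-1 (8.39 and 8.55). The arrays of 3B+3L and siDNMT3B overlapped, as did those of siDNMT3L and siD1+3B. CDH9 ran in a like order, with 5.02 and 5.02 in siDNMT3B, 5.11 and 5.05 in 3B+3L and 7.00 and 6.94 in siDNMT3A, and differed by 0.70 beside DNMT1 (adjusted p = 0.00473), a call that was lost without replicate 1 of siD1+3A (adjusted p = 0.0757) or replicate 2 of siD1+3B (adjusted p = 0.0911).

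L1CAM, an adhesion molecule of axons, was the mirror image. It measured 6.34 and 6.70 in 3A+3L, 7.39 and 7.20 in 3B+3L, 6.53 and 6.55 in siD1+3A and 7.35 and 7.18 in siD1+3B, with siDNMT3B at 7.09 and 7.33 and siDNMT3A at 6.43 and 6.51. The differences were -0.77 beside DNMT3L (adjusted p = 9.37e-05) and -0.73 beside DNMT1 (adjusted p = 0.00162). In all the 3 groups with siRNA against DNMT3B and none against DNMT3A the arrays lay above 7. FBP1, fructose bisphosphatase, measured 6.10 and 6.10 in 3A+3L, 6.93 and 6.50 in 3B+3L and 7.27 and 7.43 in siDNMT3B, with differences of -0.61 and -0.66, the latter lost without replicate 1 of siD1+3A (adjusted p = 0.0549). FBP1 did not pass the test between the controls (0.08, adjusted p = 0.597). The mitochondrial genes ROMO1 (-0.74 and -0.62) and MRPL42 (-0.49 and -0.53) and the pseudogene RPL13P5 (-0.64 and -0.55) were lower with both partners. RFESD, an iron-sulphur protein, was lower too (-0.70 and -0.73), and the second call was lost without replicate 2 of siD1+3A or either array of siD1+3B (adjusted p from 0.0614 to 0.116). Higher with both partners were DNMT3B itself, GRAMD2B (0.53 and 0.64), the metalloprotease ADAMTS9 (0.48 and 0.56) and the neuronal gene TAGLN3 (0.56 and 0.56). The second call of TAGLN3 was lost without replicate 2 of siD1+3A or either array of siD1+3B. In siNTC-1 minus siNTC-2, L1CAM (-0.84), ROMO1 (-0.98), RPL13P5 (-1.20) and RFESD (-0.79) were also lower. DNMT3B (0.31), GRAMD2B (0.21), ADAMTS9 (0.64), TAGLN3 (0.64), ACTG2 (0.80) and CDH9 (0.68) were also higher there. MRPL42 went the other way between the controls (0.24). The part of the control difference in these genes was not tested.

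**Figure D5:**
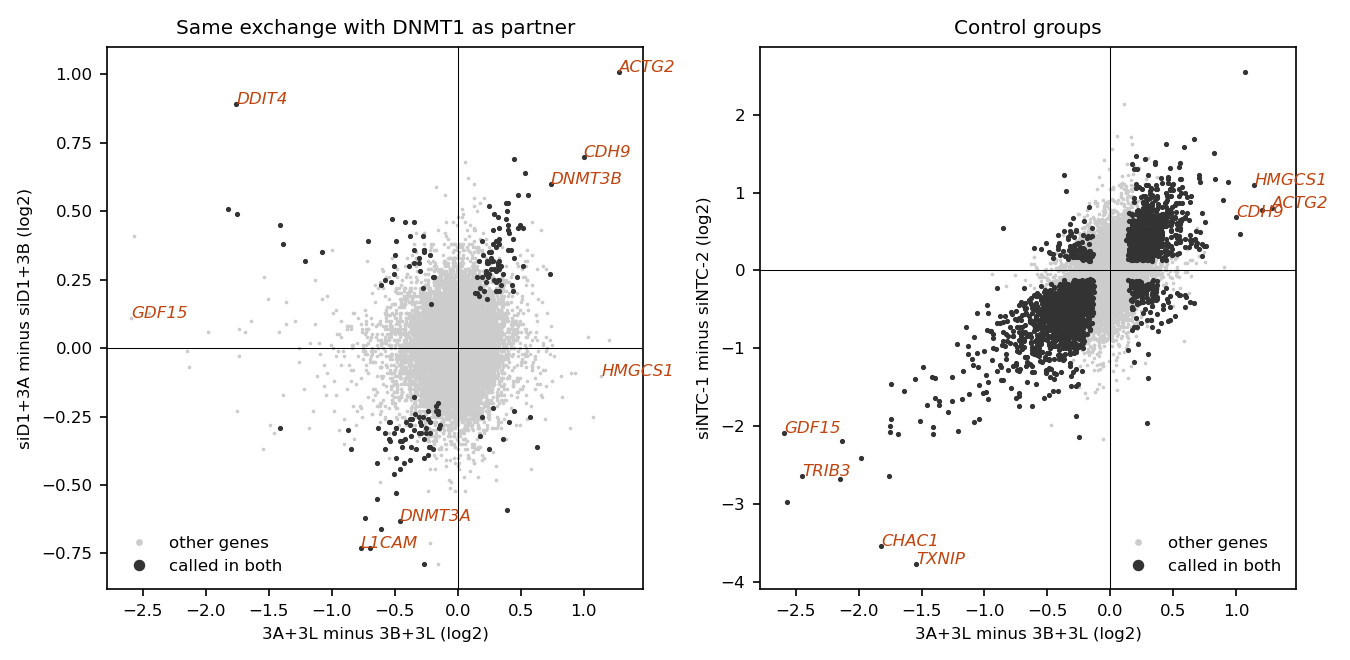
Differences of 3A+3L minus 3B+3L (horizontal axes, log2) against those of siD1+3A minus siD1+3B (left, vertical axis) and of siNTC-1 minus siNTC-2 (right, vertical axis), each point 1 of 18417 genes, dark where called in both. ACTG2, CDH9 and DNMT3B lie high on both axes on the left while GDF15 and HMGCS1 lie near 0 vertically, and on the right the points follow a rising diagonal (r = 0.54).

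The groups of stress, sterol and small RNA genes did not share the change. Beside DNMT1 the ATF4 list had 0 members lower and 6 higher (median 0.09), the cholesterol list 0 and 0, and the small nucleolar RNAs 0 and 0, where 2.18% of all genes were called. At an unadjusted limma p under 0.05 there were 2 cholesterol genes and 4 small nucleolar RNAs. GDF15 measured 6.20 and 6.07 in siD1+3A and 5.97 and 6.08 in siD1+3B, so both groups were at the low level that 3A+3L had. HMGCS1 was at 11.10 and 11.11 and at 11.20 and 11.20, the high level of 3A+3L. DDIT4 was higher in siD1+3A (8.06 and 8.14 against 7.18 and 7.23, 0.89, adjusted p = 1.16e-05), opposite to its difference beside DNMT3L. The test of the difference between partners called 1646 genes (8.94%), 561 with a higher (3.05%) and 1085 with a lower value beside DNMT3L (5.89%) (866 and 970 after quantile normalization), and 358 at 1.5-fold (1.94%). The count of 1646 fell to 1059 without replicate 1 of 3A+3L, to 976 without replicate 1 of 3B+3L, to 1096 and 954 without replicate 1 or 2 of siD1+3A and to 1075 and 1047 without replicate 1 or 2 of siD1+3B. It included 22 members of the ATF4 list with lower and 14 of the cholesterol list with higher values.

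The genes of the exchange were last set beside the difference between the control groups, which shares no array with it. Of the 3152 genes, 2361 (74.9%) also differed between siNTC-1 and siNTC-2, where 44.7% of all genes did, 2100 in the same direction and 261 in the opposite one, and across all genes the differences correlated at a Pearson r of 0.54 and a Spearman coefficient of 0.42. Of the 264 genes at 1.5-fold, 242 (91.7%) were called between controls, 235 in the same direction. The remaining 22 genes of at least 1.5-fold, which did not pass the test between controls, included SHISA3 (-0.94), SNRPG (0.90), CXCR4, a chemokine receptor (6.19 and 6.14 against 5.41 and 5.42, 0.75), PYROXD1, an oxidoreductase (-0.76), and RBM39, a splicing factor (11.46 and 11.52 against 12.11 and 12.13, -0.63). These were chosen for that pattern after their values were seen. For siD1+3A minus siD1+3B the same setting beside the controls gave 278 of 402 genes called in both, 115 in the same and 163 in the opposite direction, and a Pearson r of -0.11.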

How the data were processed

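The 26 arrays of RNA from NCCIT cells came in 13 groups of 2, read from the sample titles. Per the labels' protocols, siRNA was delivered with PepMute, Trizol was used for extraction and 250 ng of total RNA entered the labelling of cDNA. The authors deposited log2 expression values per transcript cluster. The log base was inferred from their range (3.04 to 14.87). Per the submitters' processing notes Partek was used. How background was corrected and values were normalized and summarised is not given in the sources used here. Medians of the arrays were 6.28 to 6.33, so an overall shift in RNA would not be visible. Precision is limited by the number of arrays.

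Of 33297 rows, 19460 had 1 gene symbol, 1754 several and 12083 none in the platform annotation, and 19429 matched RefSeq (GRCh38.p14) by gene number, with 0 renamed. The row with the highest mean was kept per symbol (769 genes had more than 1), which left 18417 genes, with no filter on low values. All 26 arrays entered one limma 3.58.1 fit of 13 means (lmFit, eBayes, R 4.3.3, 13 residual degrees of freedom). Two-sided p-values received the Benjamini-Hochberg adjustment across all genes, with 0.05 as threshold. Percent of control was computed from log2 differences. The procedure was tested on simulated data.

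The groups compared and the 37 gene lists were chosen with earlier results of these data known. Named were the 4 targets, the 12 largest differences in each direction past the threshold without overlap of arrays, up to 4 members of a list by adjusted p plus those needed to describe it, the 6 genes in each direction with the largest smaller difference among those called alike with both partners, the 5 largest differences between partners in each direction, and the first 2 promoters in each direction that the table holds. Promoter starts are the first listed for a gene in RefSeq.

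Alternatives were quantile normalization, array weights, a prior with trend and robust estimation, removal of the dimmest 40% of genes, a replicate block, the groups compared alone, all rows with 1 symbol, each array left out, a 1.5-fold rule and both controls. Chosen after seeing the data were the 18 arrays on the side of siNTC-2 alone, the difference between the controls, and a crossed block.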

Additional observations from a re-analysis of the deposited data

Results flagged for a closer look

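The difference between 3A and 3B depletion was not the same beside DNMT3L as beside DNMT1. The test of the difference itself (limma, 4 groups of 2 arrays) called 1646 of 18417 genes. Values below are the log2 difference of 3A+3L minus 3B+3L less that of siD1+3A minus siD1+3B. The largest positive values were those of the small nucleolar RNA SNORD14E (1.32, adjusted p = 0.000121), the sterol gene HMGCS1 (1.24, adjusted p = 2.56e-09), the spliceosomal RNA RNU5D-1 (1.18, adjusted p = 2.07e-05), the sterol regulator INSIG1 (1.17, adjusted p = 1.11e-06) and SNORD50B (1.03, adjusted p = 0.00186). The largest negative values were those of the stress response genes INHBE (-2.98, adjusted p = 4.67e-09), GDF15 (-2.70, adjusted p = 1.97e-09), DDIT4 (-2.65, adjusted p = 7.1e-11), TRIB3 (-2.58, adjusted p = 1.09e-08) and CHAC1 (-2.33, adjusted p = 7.38e-08). For the latter 5 genes both arrays of 3A+3L lay below both of 3B+3L, an order that their choice by a large difference favours. The arrays of the groups did not overlap for 52.8% of all genes. DDIT4 and CHAC1 had the opposite difference beside DNMT1, past the test in both comparisons, and the call of CHAC1 beside DNMT1 was lost without any 1 of those 4 arrays (adjusted p from 0.111 to 0.261). The same 10 genes differed between siNTC-1 and siNTC-2, by 0.77 for RNU5D-1 to 2.55 for SNORD14E among the former and by -2.09 for GDF15 to -3.53 for CHAC1 among the latter, and the part of that difference in these values was not tested.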

How the results depend on the processing

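No gene named changed direction in any alternative, and of 184 gene results 47 lost their call in at least 1 of 2390 values. With the groups compared alone, the calls were 1940 for 3A+3L minus 3B+3L (715 higher, 5 of the cell adhesion list lower), 5 for siD1+3A minus siD1+3B (5 at 1.5-fold), 2656 and 438 for 3A+3L and 3B+3L minus siNTC-2, and 2 genes shared by both partners. With an array left out, they were 1933 to 2333 (775 to 1059 higher, 1012 to 1541 lower, 2 to 6 of the cell adhesion list), 87 to 166 beside DNMT1, 954 to 1495 for the difference between partners, 913 to 1096 for 3B+3L minus siNTC-2 and 40 to 127 shared genes. Array weights gave 1011 calls beside DNMT1 and 260 shared genes, the filter on dim genes 699 and 240, and the trended and robust prior 678 and 232. With both controls, 6041 genes differed in 3B+3L (448 at 1.5-fold), and 225 at 1.5-fold in 3A+3L. The 1.5-fold rule left 264 calls for 3A+3L minus 3B+3L, 18 for siD1+3A minus siD1+3B, 358 for the difference between partners, and 384 and 63 for 3A+3L and 3B+3L minus siNTC-2. The cause of these shifts was not tested, beyond the fewer arrays of the fits that leave arrays out.

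Deviations of arrays with the same number correlated at -0.26 between 3A+3L and 3B+3L, the lowest value over 78 pairs of groups (-0.26 to 0.19). The main fit did not pair arrays by number, and with 2 arrays per group these values cannot exclude a pairing. The replicate block called 3082 genes and moved no count over all genes by over 1.5 times. Under it, of the lists, respiratory chain genes had 5 higher in place of 3 and immediate-early genes 1 in place of 2. Imprinted genes had 2 higher and 2 lower in place of 3 and 1, and methylation readers 3 and 0 in place of 4 and 1. Lower counts were 4 in place of 3 for germline, 3 in place of 2 for meiotic and for glycolysis genes. They were 2 in place of 3 for retinoic acid and 8 in place of 9 for cell adhesion genes. Higher counts were 10 in place of 11 for DNA replication genes and 13 in place of 14 for small nucleolar RNAs. The crossed replicate block, on the 4 arrays, called 2798. The 18 arrays on the side of siNTC-2 alone gave 3563 calls. DNMT3L and the dim marker genes are limited by signal near background.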
